A study of Mus musculus with 7 samples.

Results

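A line of induced pluripotent stem cells made from mouse embryonic fibroblasts (MEF_iPSC) was set against embryonic stem cells (ESC), with 1 Illumina bead array of each. Both came from OG2 mice, a strain that carries a green fluorescent protein gene under regulatory sequence of Pou5f1. The comparison covered every probe with a detection p-value under 0.01, called above background here, on at least 1 of these arrays. That gave 11154 of 25697 probes (43.4%), of which 9962 were above background on both arrays, 731 in MEF_iPSC only and 461 in ESC only. The 391 probes just inside the limit, at a detection p of 0.005 to 0.01, had a median intensity of 148 units, and the 891 just outside it, at 0.01 to 0.02, a median of 142 units. Of the members, 10516 had a gene symbol and stood for 7737 genes of 16593 on the array, and 638 had none. The series held 5 more arrays, of iPSC lines 1.1.2, 7 and 9 from lineage-negative bone marrow, of LinPos_iPSC (line 1.1, from lineage-positive bone marrow) and of lineage-negative bone marrow cells (LinNeg_BM). All 7 samples are labelled OG2. The tissue label reads bone marrow for all 7, MEF_iPSC and ESC included, so their identity here rests on the cell type label and the sample titles. The labels give neither the reprogramming factors nor the passage, sex or number of clones of a line. With 1 array a group no difference here has a replicate, and what separates 1 fibroblast iPSC culture from 1 ES cell culture cannot be told apart from what separates any pair of cultures.

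Embryonic stem cells are taken from the blastocyst, renew themselves and can form all tissues of the body. Induced pluripotent stem cells reach a like state when a body cell is made to express a few transcription factors of the pluripotency network. That network, centred on Pou5f1, Sox2 and Nanog, keeps its own genes on and lineage genes off, while reprogramming has to silence the program of the starting cell, here a connective tissue cell that makes collagens and other matrix proteins. iPSC lines can also differ from ES cells at imprinted genes, which are read from the maternal or the paternal copy alone, and in their chromosomes.

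Markers fixed for the cell types set the label of each array beside the data. All 7 pluripotency markers were above background on both arrays, with summed intensities of 50973 units in MEF_iPSC and 62748 units in ESC. Of 10 fibroblast markers 6 were above background in MEF_iPSC and 4 in ESC, with summed intensities of 2645 units in MEF_iPSC and 2172 units in ESC. Postn, Lum, Col1a2 and Col3a1, which make matrix proteins of fibroblasts, were below background on both. Of 8 blood markers 1, Laptm5, was above background on each array. Of 6 extraembryonic endoderm markers 2 were above background in MEF_iPSC and 3 in ESC, and of 4 trophoblast markers none was on either array, among them Cdx2 and Elf5. The arrays had like depth. The median intensity was 127 units on the MEF_iPSC array and 128 units on the ESC array, within the range of 103 to 135 units over all 7 arrays, and 40.6% to 42.4% of probes were above background on each of the 7.

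Most genes read alike in the fibroblast iPSC and in ES cells. Values below are background-corrected, quantile-normalized log2 intensities, and a difference is MEF_iPSC minus ESC on that scale. Over all 7737 genes the median difference was 0.01, and 73.8% of genes lay within 0.5. Across the 6980 genes above background on both arrays the SD of the difference was 0.46 and Pearson's r was 0.971, a description across genes, which are not replicates. A gene below background on one array has only a bound there, taken as its own value or, if higher, the array's lowest value above background (5.57 in MEF_iPSC, 5.67 in ESC). By that rule 173 genes (2.24% of all) were at least 2-fold higher in MEF_iPSC and 131 (1.69%) at least 2-fold lower, 304 or 3.93% together. In 22 of the higher genes the ESC value was the one below background, and in 18 of the lower genes the MEF_iPSC value. Under other settings, a 3-fold limit among them, the higher count lay between 32 and 257 and the lower between 21 and 228.

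**Figure D1:**
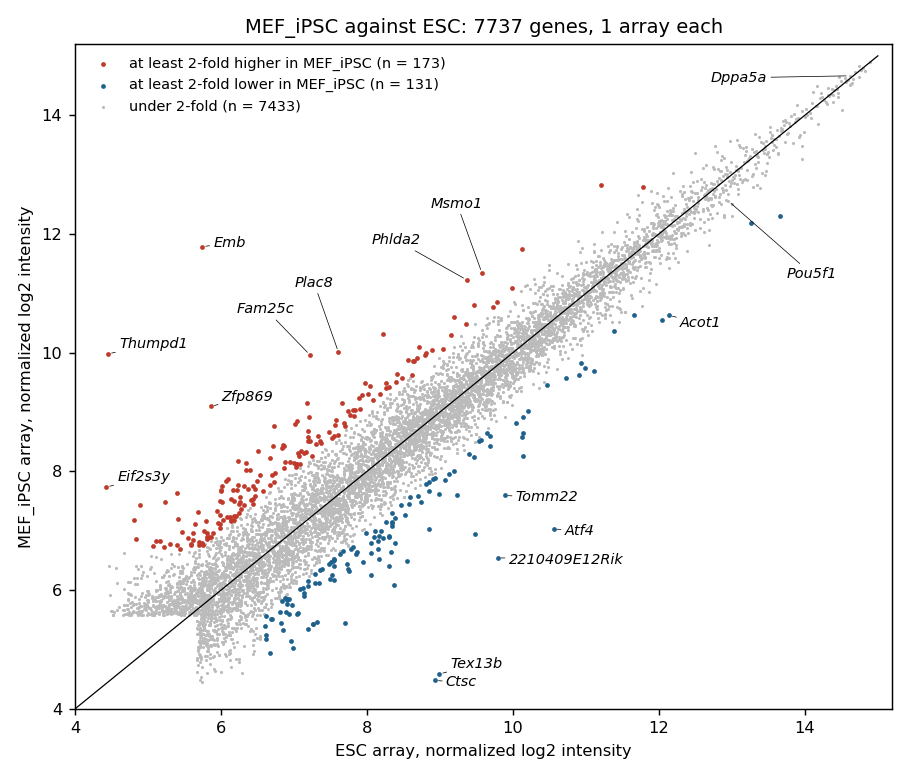
Normalized log2 intensity of 7737 genes in MEF_iPSC (vertical axis) against ESC (horizontal axis), 1 point a gene, with genes at least 2-fold higher (173) and lower (131) in MEF_iPSC coloured and the line of equal values drawn. Emb and Thumpd1 stand far above the cloud, and Ctsc, Tex13b, Atf4 and 2210409E12Rik far below it.

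The same rule gave a scale for these counts among the other pluripotent arrays. Between pairs of lines 1.1.2, 7 and 9 the number of genes 2-fold apart was 98 (1.24% of genes, lines 1.1.2 and 7), 81 (1.03%, lines 1.1.2 and 9) and 37 (0.466%, lines 7 and 9). Against the same ESC array it was 113 (1.47%) for line 1.1.2, 264 (3.37%) for line 7, 244 (3.13%) for line 9 and 375 (4.82%) for LinPos_iPSC. Member probes without a gene symbol were 2-fold apart in MEF_iPSC and ESC in 3.29%. The 304 of MEF_iPSC thus lay inside the range of the marrow iPSC lines against ESC. These comparisons share the ESC array, so a gene peculiar to that array counts in all of them. The median SD of a gene between lines 1.1.2, 7 and 9 was 0.16.

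Emb and Thumpd1 had the widest gaps above ES cells. Emb, which encodes embigin, a membrane glycoprotein of the immunoglobulin superfamily that partners monocarboxylate transporters, stood at 11.78 in MEF_iPSC and 5.74 in ESC, a difference of 6.04 or 65.9-fold. On the other arrays it read 7.79 in line 1.1.2, 6.68 in line 7, 8.96 in line 9, 11.09 in LinPos_iPSC and 12.54 in LinNeg_BM. ESC was therefore the lowest of the pluripotent arrays and MEF_iPSC the highest, with the 4 marrow lines spread between them. The Emb gap rests on 1 probe. Its ESC value lay close to the lowest value above background on that array, 5.67, so the fold is only loosely set. Thumpd1, which encodes an RNA-binding adaptor for acetylation of transfer RNA, stood at 9.98 in MEF_iPSC and was below background in ESC at 4.45, at least 19.9-fold higher. It was below background on each of the other 5 arrays too, at 4.37 to 4.59. MEF_iPSC was the one array of 7 with a Thumpd1 signal, which rests on 1 probe. Its measured neighbours on chromosome 7, Knop1 and Eri2, differed by 0.69 and 0.09. The next measured genes beyond them, Vps35l and Rexo5, had measured differences of -0.53 and -0.77.

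Ctsc and Atf4 stood out on the lower side. Ctsc encodes cathepsin C, a lysosomal protease that activates granule serine proteases of blood cells. It was below background in MEF_iPSC at 4.48, against 8.93 in ESC, at least 10.2-fold lower. The other pluripotent arrays read 8.24 to 8.88 and LinNeg_BM 10.02, so MEF_iPSC was the one array without Ctsc signal. Its other probes were below background in MEF_iPSC as well, at 4.59 and 4.38, against 7.58 and 7.59 in ESC. The next measured genes on one side of it along chromosome 7, Rab38 and Tmem135, were below background in MEF_iPSC and above it in ESC, with differences of -1.04 and -0.45 at the bound. On the other side Zfand6 differed by -0.56 and Fah by 0.06. Of the 29 measured lysosome and cathepsin genes 15 lay above 0 and 14 below, with a median of 0.04, and Ctsc was the only one at least 2-fold apart.

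Atf4, which turns on genes of amino acid supply when translation is stressed, stood at 7.03 in MEF_iPSC and 10.56 in ESC, 11.5-fold lower. Lines 1.1.2, 7 and 9 read 10.27, 10.43 and 10.13, and LinPos_iPSC 8.46. MEF_iPSC was the lowest of the pluripotent arrays, at a value near the 7.09 of LinNeg_BM. The gene has 1 member probe, so no second probe checks it. Of 40 measured genes of the Atf4 and amino acid response list, 26 lay above 0 and 14 below, with a median of 0.16, and Atf4 was the only one 2-fold apart. Asns, the asparagine synthetase that Atf4 induces, read 13.54 in MEF_iPSC and 13.84 in ESC. Sesn2 read 7.95 in MEF_iPSC and 8.52 in ESC, and its second probe 5.75 in MEF_iPSC and 6.32 in ESC. Without genes of chromosome 8 and of the chromosome 14 segment described below, 21 of 35 list genes lay above 0, with a median of 0.09. Whether the low Atf4 signal had an effect on these genes was not tested.

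Among other genes above background on both arrays, the widest higher ones were of many kinds. Zfp869, a zinc finger gene, stood at 9.09 in MEF_iPSC and 5.86 in ESC (9.41-fold), and Fam25c at 9.96 in MEF_iPSC and 7.22 in ESC (6.70-fold). Plac8, a small cysteine-rich protein of placenta and white blood cells, stood at 10.01 in MEF_iPSC and 7.61 in ESC (5.28-fold). Tdrd12, a Tudor-domain protein of germ cells that acts in transposon silencing, stood at 10.32 in MEF_iPSC and 8.23 in ESC (4.28-fold). Lines 7 and 9 lay near MEF_iPSC for Plac8, at 9.53 and 9.62, but near ESC for Tdrd12, at 8.26 and 9.03. Gch1, the first enzyme of tetrahydrobiopterin synthesis, was 4.12-fold higher, the potassium channel Kcnk1 3.91-fold, the matrix protein Smoc1 3.85-fold and the cilium protein Tekt1 3.49-fold. Osm, the cytokine oncostatin M of the LIF family, stood at 7.64 in MEF_iPSC and was below background in ESC at 5.39, at least 3.92-fold higher. It was below background in the marrow iPSC lines too, at 5.26 to 5.67, and read 8.47 in LinNeg_BM. The Osm gap rests on 1 member probe. A second Osm probe was below background on both arrays, at 5.29 in MEF_iPSC and 4.65 in ESC. Of 16 measured LIF and JAK-STAT3 genes, Osm was the only one 2-fold apart, with a median of 0.01.

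Wide lower genes included a few that were as low in LinPos_iPSC. 2210409E12Rik, a transcript known by its clone name alone, stood at 6.54 in MEF_iPSC and 9.79 in ESC (9.48-fold lower), and at 6.30 in LinPos_iPSC. Tomm22, a receptor of the mitochondrial import machinery, stood at 7.59 in MEF_iPSC and 9.89 in ESC (4.90-fold lower), beside 9.86 to 9.95 in lines 1.1.2, 7 and 9 and 7.71 in LinPos_iPSC. Uap1, an enzyme of hexosamine synthesis, had the same split, at 7.03 in MEF_iPSC and 8.85 in ESC, beside 8.66 to 8.89 in lines 1.1.2, 7 and 9 and 6.51 in LinPos_iPSC. Tlr2, a receptor for bacterial lipoproteins, stood at 6.95 in MEF_iPSC and 9.48 in ESC (5.75-fold lower), and the marrow lines read 6.54 to 8.34, all below ESC. Tex13b, an X-linked germ cell gene, was below background in MEF_iPSC at 4.59, against 8.99 in ESC, at least 10.7-fold lower, while lines 7 and 9 read 6.77 and 6.92. Its other member probe was also below background in MEF_iPSC, at 4.57, against 6.25 in ESC, a difference of -0.67 at the bound. That probe read 4.82 in line 7 and 4.71 in line 9, near MEF_iPSC, beside 6.87 in line 1.1.2 and 5.91 in LinPos_iPSC. The Tex13b probes thus conflict on lines 7 and 9.

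Probes of the same transcript served as the check inside the comparison. Of the 304 genes, 70 had another member probe, 89 such probes in all. In 86 of them (96.6%) the difference had the same direction, and in 74 (83.1%) it was also at least 50% as large, beside 73.8% and 61.1% of the 2779 other probes of all genes. For size, the other probe's measured difference was set against the gene's difference at the bound. That eases the criterion where a gene was below background on one array. A probe above background on 1 array alone entered through the array where it was high, so its direction was largely set by that filter. With only probes above background on both arrays the share in the same direction was 98.5%. Of the 2779 probes, 2690 belong to genes not called, whose smaller differences must agree less often (73.1%). The contrast with all genes is therefore a description. In 29 genes every member probe was 2-fold apart, 13 higher and 16 lower. On the higher side these included Folr1, a folate receptor, with differences of 1.79 and 1.75, and Gad1, the glutamate decarboxylase that makes GABA, with 1.77 and 1.64. On the lower side Mcam, a cell adhesion molecule, had -1.63, -1.71 and -1.28, Adam23 -1.49, -1.71 and -1.52, and Acot1, an acyl-CoA thioesterase, -1.51 and -2.05. Eif2s2, which encodes the beta subunit of translation initiation factor 2, had -1.36 and -1.86, with ESC the highest of the pluripotent arrays. The 3 probes that turned the other way belonged to Ifitm1, Parp2 and Gm5662. A second probe checks the probe and not the culture.

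Setting both arrays within the range of the 4 marrow iPSC arrays showed which of them stood apart. Of the 173 higher genes MEF_iPSC alone lay outside that range in 63 (36.4%), ESC alone in 35 (20.2%), both in 65 (37.6%) and neither in 10. Of the 131 lower genes the counts were 39, 31, 52 and 9. Over all genes MEF_iPSC alone lay outside in 23.2%, ESC alone in 18%, both in 26.4% and neither in 32.4%. Genes chosen for a wide gap between the arrays must more often lie outside, so these shares only describe them.

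Genes of chromosome 8 and of a stretch of chromosome 14 stood higher in MEF_iPSC than in ESC as a whole. On chromosome 8 the median difference was 0.40 over 392 genes above background on both arrays, and 334 of them (85.2%) lay above 0, beside 49.2% of all such genes. Every one of its 26 windows of about 15 neighbouring genes had a median above 0, between 0.23 and 0.68. The other member probes of chromosome 8 genes, 129 of them, had a median of 0.40 as well. On chromosome 14 a run of 6 windows of 15 had medians of 0.65 to 0.90. It held 90 genes from Sncg to Elp3, with a median difference of 0.79, 80 of them above 0, while the other 139 genes of chromosome 14 had a median of 0.00. The 22 other probes of the segment's genes had a median of 0.54. The segment was chosen by these values, at a window median of 0.5, so its size is a description. The medians of the other 18 chromosomes, X included, lay between -0.11 and 0.05, and none of their 426 windows reached 0.5 either way.

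**Figure D2:**
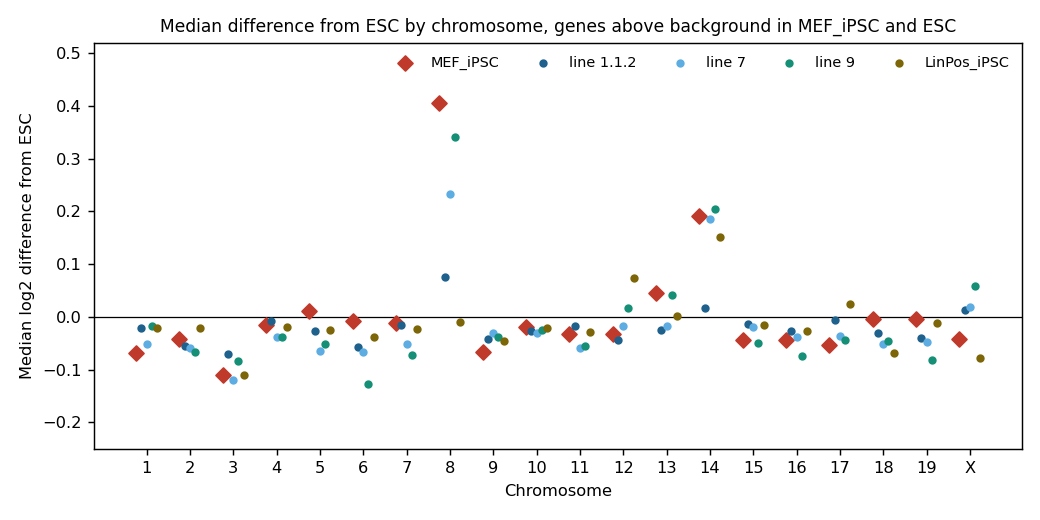
Median log2 difference from ESC (vertical axis) by chromosome (horizontal axis) for MEF_iPSC (diamonds) and the 4 marrow iPSC arrays (dots), over genes above background in MEF_iPSC and ESC; all 5 share the ESC array. MEF_iPSC stands at 0.40 on chromosome 8 and 0.19 on chromosome 14, and between -0.11 and 0.05 elsewhere.

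The pair of regions differed in which arrays they set apart. Against the shared ESC array the chromosome 8 median was 0.40 for MEF_iPSC, 0.34 for line 9, 0.23 for line 7, 0.08 for line 1.1.2 and -0.01 for LinPos_iPSC. The arrays formed a graded series there, with MEF_iPSC at its top. The chromosome 14 segment had a median of 0.79 for MEF_iPSC, 0.79 for line 7, 0.79 for line 9 and 0.86 for LinPos_iPSC, but 0.06 for line 1.1.2. ESC and line 1.1.2 thus stood at one level in this segment and the other 4 pluripotent arrays at another. Of the 90 segment genes 79 were lower in line 1.1.2 than in MEF_iPSC. Copy number was not measured.

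**Figure D3:**
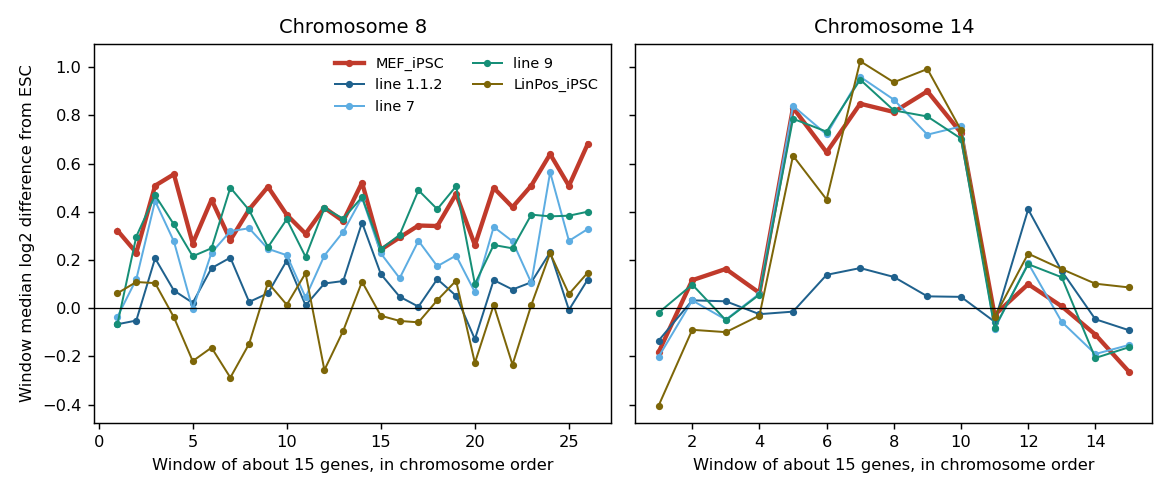
Window median log2 difference from ESC (vertical axis) along chromosomes 8 and 14 in gene order (horizontal axis) for MEF_iPSC and the 4 marrow iPSC arrays. On chromosome 8 all 26 MEF_iPSC windows lie above 0; on chromosome 14 windows 5 to 10 stand at 0.65 to 0.90 in MEF_iPSC, with lines 7, 9 and LinPos_iPSC beside it and line 1.1.2 near 0.

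These regions held 541 of the 7737 genes (6.99%) and 63 of the 173 higher genes (36.4%), but 4 of the 131 lower ones. In the segment 29 of 107 genes (27.1%) were at least 2-fold higher, and on chromosome 8 34 of 434 (7.83%). Gch1 was among the segment's genes. So were Bmp4, a signal of early mesoderm and germ cell induction, at 8.42 in MEF_iPSC and 6.71 in ESC, and Otx2, a regulator of the primed state and of forebrain, at 9.99 in MEF_iPSC and 8.81 in ESC. For both, lines 7, 9 and LinPos_iPSC read near MEF_iPSC, at 7.81 to 8.62 and at 10.02 to 10.46. On chromosome 8 lay Zfp869, Zfp930, Kcnk1, the cholesterol enzymes Msmo1 and Mvd, and the immunoproteasome subunit Psmb10, with differences of 1.42 and 1.40 by its 2 probes. Outside both regions 110 of 7196 genes (1.53%) were 2-fold higher and 127 (1.76%) lower. The regions were singled out by these same differences, so their share of the higher genes is a description.

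Genes of the pluripotency network were present at high signal in the fibroblast iPSC and mostly a little below ES cells. Of 28 measured genes 6 lay above 0 and 22 below, with a median of -0.30, beside 50.6% above 0 and a median of 0.01 over all genes. No gene was 2-fold higher, beside 2.24% of all genes, and 3 were 2-fold lower, beside 1.69%. Those were Tbx3, a T-box factor of naive self-renewal, at 9.74 in MEF_iPSC and 10.98 in ESC, Mybl2 at 12.18 in MEF_iPSC and 13.27 in ESC, and Tdgf1, the Nodal co-receptor Cripto, at 6.50 in MEF_iPSC and 7.55 in ESC. For Tbx3 line 9 was almost as low, at 9.89. The second Tdgf1 probe ran the same way, at 5.54 and below background in MEF_iPSC, against 6.36 in ESC. On the first probe lines 1.1.2, 7 and 9 read 6.69, 6.81 and 7.24, and LinPos_iPSC 4.76. The second probe read highest in LinPos_iPSC, at 6.81, so the Tdgf1 probes conflict on that array. Nanog read 12.07 in MEF_iPSC and 12.69 in ESC, beside 12.42 to 12.77 in the marrow lines. Klf5 read 10.69 in MEF_iPSC and 11.53 in ESC, beside 11.27 to 12.10 in the marrow lines. MEF_iPSC was the lowest of the pluripotent arrays for both. Against the same ESC array the list median was -0.01, -0.08 and -0.10 for lines 1.1.2, 7 and 9 and 0.10 for LinPos_iPSC.

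Among the reprogramming factors Pou5f1 read 12.56 in MEF_iPSC and 12.95 in ESC, and Sox2 10.08 in MEF_iPSC and 9.97 in ESC. The second Sox2 probe turned the other way, at 8.63 in MEF_iPSC and 9.59 in ESC, so no direction is given for Sox2. All 3 Klf4 probes were lower in MEF_iPSC, by differences of -0.85, -1.19 and -1.28. Both Myc probes were below background on both arrays. Lin28a, an RNA-binding protein that blocks let-7 maturation, stood above ES cells, at 9.46 in MEF_iPSC and 8.55 in ESC, with differences of 0.91 and 1.05 by its 2 probes. Crxos, a homeobox gene of early embryos, stood at 8.15 in MEF_iPSC and 7.20 in ESC, and the 4 marrow lines read 5.92 to 6.36. Its second probe ran the same way, at 6.70 in MEF_iPSC, against 5.32 and below background in ESC.

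**Figure D4:**
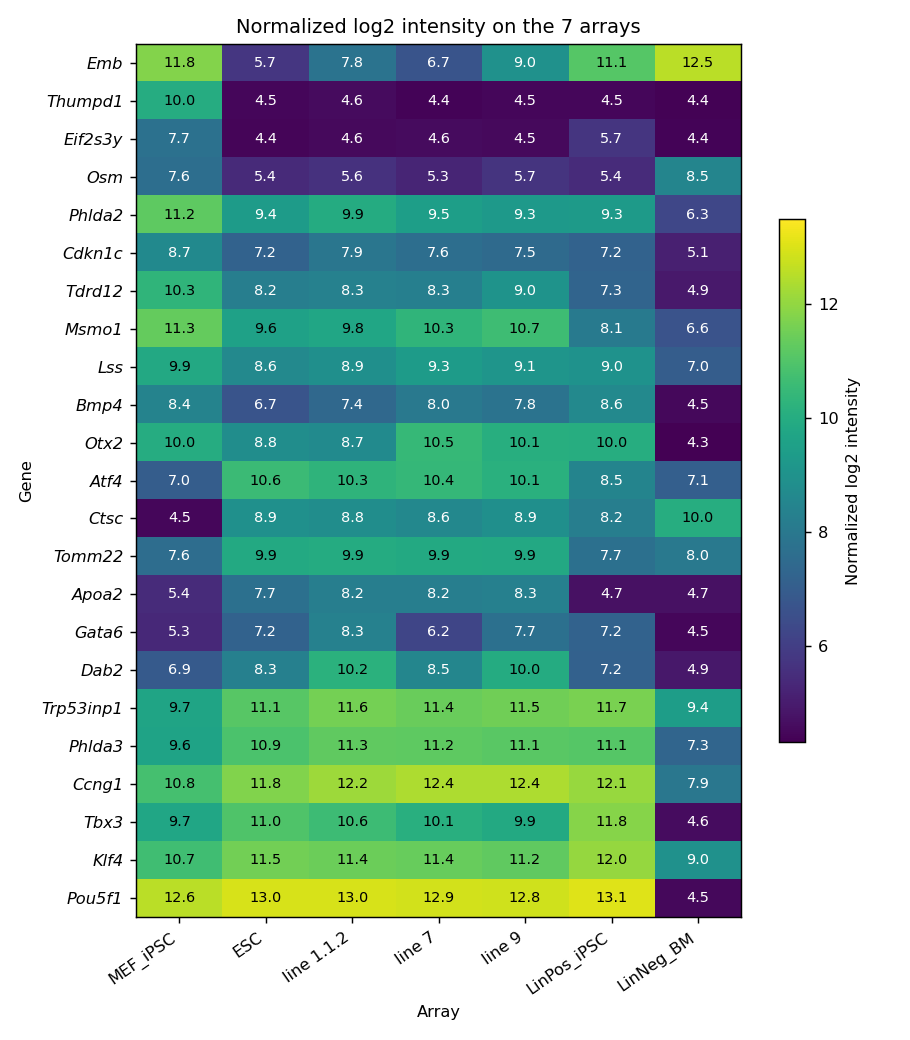
Normalized log2 intensity (colour, with the value to 1 decimal) of 23 genes (rows) on the 7 arrays (columns, MEF_iPSC first and ESC second). Thumpd1 is bright in MEF_iPSC alone and Ctsc dim in MEF_iPSC alone, while Pou5f1 is bright on all pluripotent arrays.

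Genes that mark the step from the naive to the primed state split in direction. Of 8 measured genes 3 were 2-fold higher in MEF_iPSC and none lower, with a median of 0.12. Over all genes 2.24% were higher and 1.69% lower by this rule. Otx2, on the chromosome 14 segment, was named above. Pou3f1, a POU factor of the epiblast, read 6.95 in MEF_iPSC and 5.81 in ESC. The DNA methyltransferase Dnmt3b was higher by both probes, with differences of 1.01 and 1.34, and its partner Dnmt3l by 0.87 and 0.68. Nodal, at 8.94 in MEF_iPSC and 9.74 in ESC, and Zic2, at 6.06 in MEF_iPSC and 6.94 in ESC, went the other way. Without chromosome 8 and the segment the list's median was -0.29, so its sign turned with the single gene Otx2. Of 24 DNA methylation and polycomb genes Dnmt3b was the only one 2-fold apart, and the median was -0.10.

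Extraembryonic endoderm genes, the program of the yolk sac lineage, had 3 members at least 2-fold lower and none higher among 17 measured, with a median of -0.08. Over all genes 1.69% were at least 2-fold lower and 2.24% higher. Apoa2, an apolipoprotein, was below background in MEF_iPSC at 5.44, against 7.70 in ESC, at least 4.37-fold lower. It read 8.22 to 8.32 in lines 1.1.2, 7 and 9 and 4.71 in LinPos_iPSC. Gata6, the transcription factor that specifies this lineage, was below background in MEF_iPSC at 5.35, against 7.19 in ESC, at least 3.07-fold lower. The endocytic adaptor Dab2 was lower by 2 probes, at 6.92 and 6.86 in MEF_iPSC, against 8.30 and 8.01 in ESC. Lines 1.1.2, 7 and 9 exceeded both arrays for Dab2, at 8.54 to 10.17. Amn, which encodes amnionless of the visceral endoderm, went the other way at 7.87 in MEF_iPSC and 6.88 in ESC, just under 2-fold.

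The factor p53 halts the cell cycle or triggers cell death after DNA damage. Its targets were listed together with cell-cycle inhibitors such as Cdkn1c, and most of the list lay below ES cells. Of 26 measured p53 targets and cell-cycle inhibitors 9 lay above 0 and 17 below, with a median of -0.30. Over all genes 50.6% lay above 0 and 49.2% below. Trp53inp1 was lower by both probes, at 9.69 in MEF_iPSC and 11.11 in ESC for the brighter one, beside 11.39 to 11.65 in the marrow lines. Phlda3, an inhibitor of Akt, read 9.63 in MEF_iPSC and 10.91 in ESC, beside 11.08 to 11.26 in the marrow lines. Plk2 read 6.60 in MEF_iPSC and 7.85 in ESC, beside 8.16 to 8.66. For these 3 genes MEF_iPSC was the lowest and ESC the next lowest of the pluripotent arrays. Ccng1 followed the same order without reaching 2-fold, at 10.78 in MEF_iPSC, 11.76 in ESC and 12.08 to 12.36 in the marrow lines, as did Mdm2, the ubiquitin ligase that p53 induces against itself, at 11.25 in MEF_iPSC, 11.75 in ESC and 11.84 to 12.23 in the marrow lines. Cdkn1a, which encodes the inhibitor p21, read 10.73 in MEF_iPSC and 11.16 in ESC. Against the shared ESC array the list median was -0.30 for MEF_iPSC, and 0.36, 0.30, 0.25 and 0.26 for lines 1.1.2, 7, 9 and LinPos_iPSC. Members at least 2-fold higher were Tigar, a fructose bisphosphatase, at 7.94 in MEF_iPSC and 6.69 in ESC, and the imprinted inhibitor Cdkn1c.

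**Figure D5:**
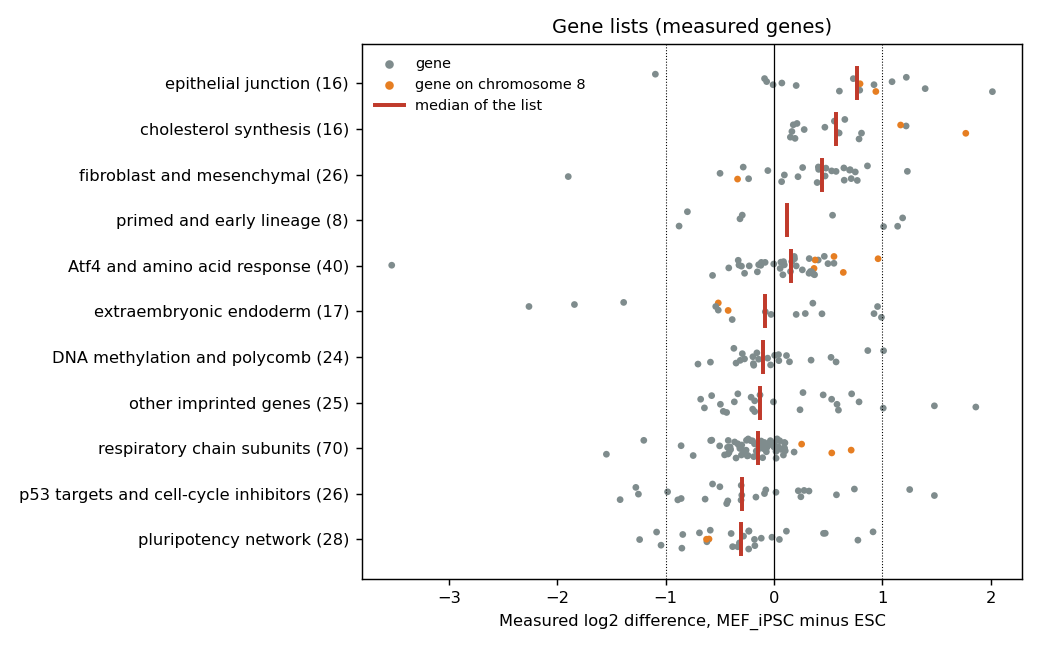
Measured log2 difference, MEF_iPSC minus ESC (horizontal axis), of the genes of 11 lists (rows, number measured in brackets), 1 dot a gene, with genes of chromosome 8 in orange, the list median as a bar and 2-fold as dotted lines. All 16 cholesterol genes lie right of 0. To its left lie 17 of the 26 p53 targets and cell-cycle inhibitors and 22 of the 28 pluripotency genes.

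Genes of cholesterol synthesis were higher in MEF_iPSC throughout. All 16 measured genes lay above 0, with a median of 0.57 and a range of 0.15 to 1.77, and 3 were at least 2-fold higher. Over all genes 50.6% lay above 0 and 2.24% were at least 2-fold higher. Msmo1, the sterol C4-demethylase, stood at 11.34 in MEF_iPSC and 9.57 in ESC (3.41-fold), Lss, which closes the sterol rings, at 9.86 in MEF_iPSC and 8.64 in ESC (2.33-fold), and Mvd, which makes isopentenyl diphosphate, at 9.96 in MEF_iPSC and 8.79 in ESC (2.25-fold). Lines 1.1.2, 7 and 9 and LinPos_iPSC read 8.89 to 9.34 for Lss and 9.03 to 9.35 for Mvd, between ESC and MEF_iPSC. For Msmo1 lines 1.1.2, 7 and 9 lay between as well, at 9.75 to 10.66, and LinPos_iPSC below both, at 8.09. Msmo1 and Mvd lie on chromosome 8. The 14 genes elsewhere were all above 0 too, with a median of 0.51, among them Cyp51 at 9.85 in MEF_iPSC and 9.04 in ESC and Dhcr7 at 9.38 in MEF_iPSC and 8.60 in ESC. Among the smallest gaps were those of Hmgcs1, which makes HMG-CoA for the pathway, at 13.13 in MEF_iPSC and 12.92 in ESC, and of Srebf2, which encodes the transcription factor that drives the pathway, at 8.72 in MEF_iPSC and 8.55 in ESC. Against the shared ESC array the list median was 0.19, 0.20 and 0.18 for lines 1.1.2, 7 and 9 and 0.24 for LinPos_iPSC, so it was above 0 for all 5 iPSC arrays and highest for MEF_iPSC.

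The promoters of the 3 genes past 2-fold are shown because these genes stood higher together and the Srebf2 protein is known to act through sterol elements with neighbouring CCAAT boxes. Sequences are RefSeq's for GRCm38.p6, 250 bases before to 50 bases after the gene start, on the strand of the gene, with CCAAT (on the other strand read as ATTGG) and TCACNCCA, searched on both strands, in capitals.
Msmo1, chr8:64733529-64733828, minus strand: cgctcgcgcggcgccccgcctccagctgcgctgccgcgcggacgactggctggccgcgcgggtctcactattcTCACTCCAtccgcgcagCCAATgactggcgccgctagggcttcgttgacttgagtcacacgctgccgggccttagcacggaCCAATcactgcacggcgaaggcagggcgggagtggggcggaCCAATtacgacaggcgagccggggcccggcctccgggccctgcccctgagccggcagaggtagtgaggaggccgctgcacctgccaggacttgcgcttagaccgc
Lss, chr10:76531355-76531654, plus strand: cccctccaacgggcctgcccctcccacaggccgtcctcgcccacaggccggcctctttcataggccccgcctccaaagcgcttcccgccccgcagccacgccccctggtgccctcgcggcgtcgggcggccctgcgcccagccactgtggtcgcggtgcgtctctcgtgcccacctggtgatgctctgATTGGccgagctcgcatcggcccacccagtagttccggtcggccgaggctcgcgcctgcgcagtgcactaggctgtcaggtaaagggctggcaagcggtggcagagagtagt
Mvd, chr8:122443373-122443672, minus strand: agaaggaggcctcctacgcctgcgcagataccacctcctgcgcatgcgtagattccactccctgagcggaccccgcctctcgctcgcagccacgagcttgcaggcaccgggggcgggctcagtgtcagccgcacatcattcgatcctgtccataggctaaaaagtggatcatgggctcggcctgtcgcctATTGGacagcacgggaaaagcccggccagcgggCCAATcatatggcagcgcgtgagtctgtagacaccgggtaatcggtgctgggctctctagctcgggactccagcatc
Of the 16 measured genes 13 had a promoter in the RefSeq table, 16 promoters in all. CCAAT on either strand was in 13 of those 16 promoters (81.2%), beside 37.4% of 32851 mouse promoters of the same length. TCACNCCA on either strand was in 3 (18.8%), those of Hmgcs1, Msmo1 and Srebf2, beside 4.36% of all. TCACNCCA ends in the CCA that opens CCAAT, so matches of both can share bases. The 32851 promoters were not limited to genes above background here, and the 16 promoters belong to only 13 genes, so these shares only describe. A match describes letters in this window and does not show that a factor bound there. The cause of the higher values of cholesterol genes was not tested.

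Most measured genes of epithelial junctions stood higher in MEF_iPSC. Of 16 measured junction genes 12 lay above 0, beside 50.6% of all genes, with a median of 0.76. None was at least 2-fold lower, beside 1.69% of all genes, and 4 were at least 2-fold higher, beside 2.24%. These were Grhl2, a regulator of epithelial genes, at 7.53 in MEF_iPSC and 6.14 in ESC, Esrp1, a splicing regulator of epithelia, at 9.57 in MEF_iPSC and 8.48 in ESC, and the claudins Cldn6 and Cldn3. Cldn6 read 9.91 in MEF_iPSC and 8.69 in ESC, and Cldn3 6.85 in MEF_iPSC while below background in ESC at 4.84. Cdh1, the E-cadherin of epithelia and of pluripotent colonies, read 10.53 in MEF_iPSC and 9.73 in ESC and lies on chromosome 8. For Grhl2, Cldn6 and Cldn3 ESC was the lowest of the pluripotent arrays. Against the shared ESC array the list median was 0.24, 0.66 and 0.83 for lines 1.1.2, 7 and 9 and 0.41 for LinPos_iPSC, so MEF_iPSC lay within the range of the other lines.

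Of 26 measured fibroblast and mesenchymal genes 20 lay above 0 in the iPSC made from fibroblasts, beside 50.6% of all genes. Their median was 0.44, but 1 gene was 2-fold higher and 1 lower, beside 2.24% and 1.69% of all genes. The median was 0.24 with no background correction and 0.29 with normexp. Ccn1, a matrix-associated growth regulator, stood at 9.04 in MEF_iPSC and 7.80 in ESC. Tgfbi, a matrix protein induced by TGF-beta, stood at 6.40 in MEF_iPSC and 8.30 in ESC, with MEF_iPSC the lowest and ESC the highest of the pluripotent arrays. Among the fixed fibroblast markers Thy1 read 10.27 in MEF_iPSC and 9.62 in ESC, Col1a1 6.57 in MEF_iPSC and 6.10 in ESC, and the brighter Dcn probe 6.36 in MEF_iPSC and 5.83 in ESC. Twist1 read 5.97 in MEF_iPSC and 6.03 in ESC, and S100a4 5.63 in MEF_iPSC and 5.56, below background, in ESC. The 1 member probe of Prrx1 read 5.77 in MEF_iPSC and 5.36, below background, in ESC. Postn, Lum, Col1a2 and Col3a1 were below background on both, as given above. Against the shared ESC array the list median was 0.40, 0.99 and 0.49 for lines 1.1.2, 7 and 9, which came from bone marrow, and 0.11 for LinPos_iPSC, so MEF_iPSC lay within their range. Fewer cells of a type and less RNA per cell cannot be told apart in such cultures.

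Imprinted genes had 3 members at least 2-fold higher and none lower among 25 measured, with a median of -0.13. Over all genes 2.24% were at least 2-fold higher and 1.69% lower. Phlda2, a brake on placental growth, stood at 11.23 in MEF_iPSC and 9.37 in ESC (3.64-fold), beside 9.29 to 9.94 in the marrow lines. Cdkn1c, which encodes the cell-cycle inhibitor p57, stood at 8.67 in MEF_iPSC and 7.19 in ESC (2.79-fold), beside 7.18 to 7.92. Both belong to the imprinted cluster beside Igf2 on chromosome 7, and for both MEF_iPSC alone lay outside the other pluripotent arrays. Their neighbours showed no gap of this size above ESC. Slc22a18 read 6.76 in MEF_iPSC and 6.88 in ESC, Tssc4 6.99 on both arrays, Nap1l4 11.90 in MEF_iPSC and 12.04 in ESC, and Cd81 12.31 in MEF_iPSC and 12.89 in ESC. Igf2, the growth factor, read 10.99 in MEF_iPSC and 10.41 in ESC. Ddc, which encodes an amine-forming decarboxylase, was 2.01-fold higher. Of the Dlk1-Dio3 cluster, whose silencing sets some iPSC lines apart from ES cells, Dlk1 read 7.32 in MEF_iPSC and 7.15 in ESC and Dio3 6.20 in MEF_iPSC and 5.75 in ESC. No probe was named for Meg3, Rian or Mirg, so Dlk1 and Dio3 alone do not show whether the cluster was silenced.

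Eif2s3y, which encodes a Y-linked subunit of translation initiation factor 2, read 7.73 in MEF_iPSC and was below background in ESC at 4.43, at least 4.19-fold higher. It was the only one of 16 Y chromosome probes, for 15 genes, above background in MEF_iPSC, and none was in ESC. Its X-linked homolog Eif2s3x read 11.15 in MEF_iPSC and 11.18 in ESC. Both probes of Xist, the RNA that coats the inactive X chromosome, were below background on both arrays, and the X chromosome's median difference was -0.04. The Xist probes read 11.89 and 10.24 in LinNeg_BM and 4.69 to 5.72 in the marrow iPSC lines. Germline genes split, with 2 of 12 measured members 2-fold higher and 2 lower, beside 2.24% and 1.69% of all genes. Beside Tdrd12, the X-linked homeobox gene Rhox5 was higher, at 11.75 in MEF_iPSC and 10.12 in ESC, with line 1.1.2 near MEF_iPSC at 11.59. Tuba3a, a testis alpha-tubulin whose near-identical copies may share probes, stood at 8.26 in MEF_iPSC and 10.14 in ESC, and the germ cell RNA-binding protein Dazl at 6.47 in MEF_iPSC and 7.51 in ESC.

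Large housekeeping families stayed near ES cells. Of 58 measured cytosolic ribosomal protein genes 26 lay above 0, with a median of 0.00, and Rpl21 alone was 2-fold apart. The 69 mitochondrial ribosomal protein genes had a median of 0.00 and the 32 proteasome genes 0.01, with Psmb10 the only one 2-fold apart in the 2 families. Subunits of the respiratory chain were shifted slightly, with 17 of 70 above 0, beside 50.6% of all genes, and a median of -0.15. Cox6b2, a testis form of a cytochrome c oxidase subunit, was the one member 2-fold lower, at 8.58 in MEF_iPSC and 10.13 in ESC, beside 10.39 to 10.46 in the marrow lines. Ndufa13 of complex I, on chromosome 8, had the highest difference of the list, at 13.48 in MEF_iPSC and 12.77 in ESC. Against the shared ESC array this list's median was -0.05, -0.03 and -0.09 for lines 1.1.2, 7 and 9 and -0.04 for LinPos_iPSC. Of 26 cell cycle genes 11 lay above 0, none 2-fold apart, with a median of -0.03. Of 143 measured Zfp zinc finger genes 56 lay above 0, with a median of -0.12, 3 higher and 2 lower by 2-fold. The higher ones included Zfp869 and Zfp930, and the lower ones were Zfp553, at 6.49 in MEF_iPSC and 8.54 in ESC, and Zfp365, at 6.26 in MEF_iPSC and 8.06 in ESC, beside 8.60 to 9.18 in the marrow lines.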

How the data were processed

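Expression was measured on 7 Illumina mouse bead arrays, 1 per RNA sample; per the labels' protocols 500 ng of RNA was amplified with a 12 h transcription step. The deposited table gives intensities per probe and array on a linear scale, neither background-subtracted nor scaled, by their values, with a deposited detection p-value beside each. A second table holds the authors' processed log2 values, used as an alternative. Per the submitters' processing notes BeadStudio 3.2, RMA and lumi were used, in roles that are not stated.

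Intensities were background-corrected and quantile-normalized over all 7 arrays with neqc of limma 3.58.1 (R 4.3.3, offset 16) and taken to log2. Probes were named through the platform annotation (23978 of 25697 with 1 symbol, 1719 not listed), and 23962 were matched by gene ID to a GRCm38.p6 gene table for chromosome and gene order. No source used here gives the probes' build, so probes were not placed on the genome. Genes are given by chromosome and order, and coordinates only for the promoters shown. The member probe with the highest mean over MEF_iPSC and ESC stood for its gene. With 1 array a group there is no test; a gene was counted at 2-fold, with the bound for values below background. The number of arrays limits the precision. The 35 lists and families, the members and the rule for named genes were chosen with earlier results of these data known. Named were the 12 widest differences each way above background on both arrays, the 8 widest bounds each way, 8 genes each way whose member probes were all 2-fold apart, up to 4 members of each list and a fixed set; other list members named here, and genes named as neighbours or for their region, were chosen after their values were seen. The steps were tested on simulated data (Python 3.11.15, pandas 2.3.3).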

Additional observations from a re-analysis of the deposited data

Results flagged for a closer look

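Among the 638 member probes without a gene symbol, which the comparison of genes did not use, 13 were at least 2-fold higher in MEF_iPSC and 8 lower (3.29%, beside 3.93% of named genes). In 3 of them MEF_iPSC showed signal where ESC was below background. ILMN_2726005 was at least 2.27-fold higher, ILMN_2649610 at least 2.02-fold and ILMN_2677782 at least 2.02-fold. The genes of these probes are not named here.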

How the results depend on the processing

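With 1 array a group there was no replicate to leave out. No paired analysis was possible because MEF_iPSC and ESC have 1 array each and no test was made. Over 12 settings chosen in advance and 2 added after seeing the data (differences without the bound, and genes off chromosome 8 and the chromosome 14 segment), the median difference of all genes lay between -0.005 and 0.0148, and none of the counts and medians given next turned its sign. The count of higher genes, 173, was 79 with normexp background correction at offset 50, 53 with no background correction, 32 at 3-fold and 110 off chromosome 8 and the segment. The count of lower genes, 131, was 53 with normexp, 34 with no background correction, 21 at 3-fold and 228 in the authors' processed values. Without the bound 235 genes were higher and 175 lower. Agreement of other probes in direction, 96.6%, was 91.1% at a detection p under 0.05. The pluripotency median, -0.30, was -0.25 with normexp and -0.23 with no background correction. That of p53 targets and cell-cycle inhibitors, -0.30, was -0.19 with normexp, -0.18 with no background correction and -0.24 with median scaling. The cholesterol median, 0.57, was 0.48 with normexp, 0.43 with no background correction, 0.61 in the authors' values, 0.51 at a detection p under 0.05 (16 of 18 genes above 0), 0.51 off chromosome 8 and the segment, and 0.56 with median scaling, with MEF_iPSC and ESC normalized alone and with the 6 pluripotent arrays. The chromosome 8 median lay between 0.33 and 0.44 that of the segment between 0.62 and 0.85, and the fibroblast median, 0.44, between 0.24 (no background correction) and 0.58 (the authors' values). Of 1792 values of 166 named genes, 1561 moved by less than the SD between lines 1.1.2, 7 and 9, 231 moved further and 0 turned a 2-fold gap round. Of 359 values of the other 30 list medians, 6 turned sign from beyond 0.1, in the primed, neural, germline and sex-linked lists. The causes of these shifts were not tested. Signal near background limits the differences of dim genes.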
